A study of Fundulus heteroclitus with 8 samples.

Results

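The transcripts examined here encode the machinery that turns messenger RNA into protein, namely initiation factors, elongation factors, a release factor, poly(A)-binding proteins and tRNA synthetases. They were measured in the testis of the mummichog (Fundulus heteroclitus, a small estuarine killifish). Probes were chosen by product name alone, taking every non-control probe whose name held a phrase for one of these protein families, and 91 of 7157 probes qualified. These 91 probes carried 61 product names. All animals were adult males. The DHT50 group consisted of 4 males kept for 21 days in water containing 5α-dihydrotestosterone (DHT) at 50 µg/L. This androgen is not a substrate of aromatase, the enzyme that makes estrogens. The reference was 4 control males of the same study at 0 µg/L. Each male gave 1 testis RNA sample and 1 array of a single-colour (Cy3) Agilent design, and the labels describe the samples as biological replicates. No strain, genotype or tank is given in the sources used here.

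Translation begins when initiation factors bring the initiator tRNA, the small ribosomal subunit and a capped messenger RNA together. Elongation factors then deliver aminoacyl-tRNAs and move the ribosome along the message, and a release factor ends the chain at a stop codon. Poly(A)-binding proteins coat the tail of the message and contact the initiation machinery, and each tRNA synthetase loads 1 amino acid onto its tRNAs. In the testis, germ cells are known to make and store many messages well before these are translated, so that control of translation is prominent in spermatogenesis.

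The names bear out the chosen family for most of the probes. Initiation factors accounted for 38 probes, elongation factors for 17, eukaryotic release factor 1 (eRF1) for 1, poly(A)-binding proteins for 8, cytosolic tRNA synthetases for 17 and a mitochondrial tRNA synthetase for 1. The other 9 probes were placed in none of these classes, going by their names alone. They are named as kinases of translation factors, proteins that bind or interact with them, Polymerase I and transcript release factor, and RAN guanine nucleotide release factor. No probe (0) was named elongation factor Tu. Names are those of the array design, mostly the name of the closest protein in another organism, and where several probes share a name a number identifies the probe. Probe sequences were not analysed here.

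Levels are given as the log2 processed signal minus the 75th percentile of the same array, so that 0 means as bright as that percentile. They can be compared between arrays for 1 probe, and the level of a probe is not set against that of another. Of the 91 probes, 85 exceeded background clearly (Agilent's own flag) on 4 or more arrays and were tested, and 72 of these did so on all 8. The 6 untested probes were those of Elongation factor 1 epsilon-1 and RAN guanine nucleotide release factor, and 1 probe each of eIF3 subunit 1, eIF3 subunit 2 (eIF3i), poly(A)-binding protein 1 and Histidyl-tRNA synthetase. Each was well above background on at most 3 arrays, and other probes of eIF3 subunit 1, eIF3i, poly(A)-binding protein 1 and Histidyl-tRNA synthetase were tested.

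The arrays differed in quality. Their brightness, the 75th percentile of log2 signal, was 10.95, 7.97, 9.13 and 9.50 in DHT50 males 1 to 4, against 11.21, 9.99, 10.09 and 10.03 in control males 1 to 4. Between 4742 and 6227 of 7157 probes were well above background on an array. DHT50 1 and control 1 were thus the brightest arrays and DHT50 2 was the dimmest, with DHT50 3 and DHT50 4 also dimmer than every control. By the array barcodes, slide row 1 held DHT50 1 to 3 with control 1, and slide row 2 held DHT50 4 with control 2 to 4. Transcripts of liver and plasma proteins stood out in control 1, where the signal of 42 probes summed to 592 in units of the 75th percentile, against 9.38 to 41.5 in the other controls and 7.07 to 60.9 in DHT50 males. The germ-cell marker DEAD-box protein 4 (Vasa) was well above background on all 8 arrays, at -0.02, -2.08, -2.37 and -1.59 in DHT50 males and 0.03, -0.82, -1.17 and -0.24 in controls. Not all germ-cell markers ran this way, as 2 of the 5 tested were higher and 3 lower in DHT50 males, with changes from -0.96 to 0.54. Inhibin alpha, a marker of somatic cells of the gonad, was likewise above background on all 8.

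DHT50 was compared with control to ask whether the androgen altered the transcripts of the translation machinery. No translation probe passed limma's test at an adjusted p of 0.05 (0 of 85), and none did among all 5989 tested probes, where the share called was 0%. Also 0 of the 85 reached an unadjusted p under 0.05, against 4.71% of all tested probes (3.29% higher and 1.42% lower in DHT50 males). The signs of the fold changes leaned to lower levels in DHT50 males. Of the 85 probes, 27 were higher and 58 were lower in DHT50 males, the lower ones making up 68.2%, against 46.4% of all tested probes, and the higher ones 31.8%, against 53.6%. The median log2 change (DHT50 minus control) was -0.27 over the 85 probes and 0.06 over all tested probes. These shares and medians are descriptions, since probes of 1 array move together and many of the genes share regulation or a name.

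Single changes were small. They ranged from -0.996 to 0.97, so that 0 of 85 differed more than 2-fold, whereas 11.5% of all tested probes did. The lowest adjusted p among the 85 was 0.685. No probe separated the groups without overlap (0 of 85), against 1.27% of all tested probes with every DHT50 male above every control and 0.952% with every one below. The median standard error of a change was 0.38, somewhat smaller than the 0.45 over all tested probes, and the residual standard deviation between males was 0.49, against 0.65. For 22 of the 85 probes (25.9%) the 95% interval of the change lay wholly within a 2-fold difference, as it did for 17.1% of all tested probes. For the remainder, a difference larger than 2-fold in at least 1 direction lies within the interval. In whole-testis RNA, fewer cells of a type and less RNA per cell cannot be told apart.

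**Figure D1:**
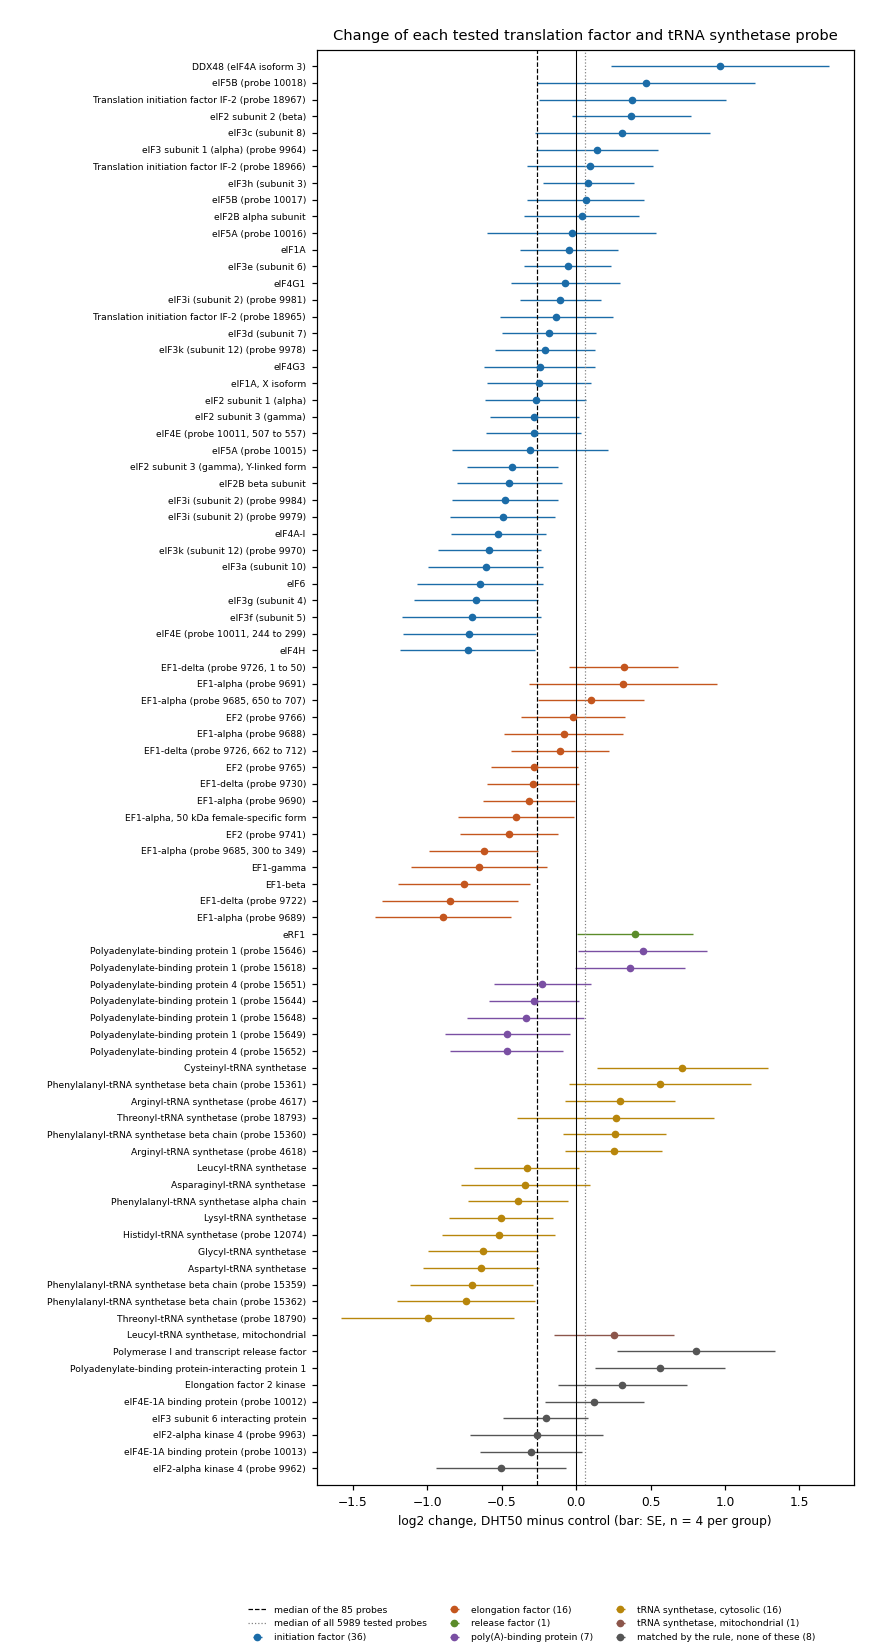
Log2 change (DHT50 minus control, horizontal axis) of each of the 85 tested probes, grouped and coloured by role, with bars for the standard error (n = 4 males per group). The dashed line marks the median of the 85 probes at -0.27 and the dotted line that of all 5989 tested probes at 0.06; 58 points lie below 0 and none exceeds a 2-fold difference.

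Initiation factors were the largest class, with 10 of 36 tested probes higher and 26 lower in DHT50 males, 0 of them past the test in either direction. Their changes ranged from -0.73 to 0.97 around a median of -0.23. eIF2, the trimer that carries initiator tRNA to the ribosome, had 1 probe higher and 3 lower, with a median of -0.28. Its gamma subunit, in the form named after the mouse Y chromosome, had levels of 0.89, 0.21, 0.09 and 0.12 in DHT50 males, against 0.84, 0.69, 0.78 and 0.71 in control males. The controls were nearly level with each other while DHT50 males 2 to 4 lay below all of them, and DHT50 1 lay above. The difference was -0.43 ± 0.30 (SE, limma, adjusted p = 0.685). The alpha subunit, whose phosphorylation slows initiation under stress, had 0.999, 0.09, -0.16 and 0.13 in DHT50 males and 0.64, 0.59, 0.25 and 0.67 in controls. It showed the same arrangement, with DHT50 1 on top and the other DHT50 males under every control. The subunits of eIF2B, the exchange factor that recharges eIF2 with GTP, differed by 0.04 ± 0.39 (alpha) and -0.45 ± 0.35 (beta).

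eIF3, the large scaffold that holds the small ribosomal subunit ready for a message, was covered by 13 tested probes placed there by name. The eIF3 subunit 6 interacting protein, given below, was not counted among them. Of the 13, 3 were higher and 10 lower in DHT50 males, with a median of -0.21 and a range of -0.70 to 0.31. eIF3g had 1.18, -0.56, -0.51 and -0.04 in DHT50 males, against 0.73, 0.60, 0.76 and 0.66 in controls. Control males spanned a narrow band that 3 DHT50 males undershot and 1 exceeded, and the change was -0.67 ± 0.42. eIF3f had 2.21, 0.07, 0.72 and 0.43 in DHT50 males and 1.88, 1.20, 1.57 and 1.59 in controls, a change of -0.70 ± 0.47. Here too DHT50 1 was the highest of all 8 males. For eIF3i, probe 9979 gave 3.41, 2.03, 3.02 and 2.94 in DHT50 males, against 3.36, 3.33, 3.33 and 3.35 in controls. The standard deviation was 0.58 among DHT50 males and 0.02 among controls, and the change was -0.49 ± 0.35. A second eIF3i probe (9984) gave nearly the same picture, with a change of -0.48 ± 0.35. eIF3e, with eIF4A-I one of the 2 brightest initiation probes, had 4.86, 5.16, 4.59 and 4.93 in DHT50 males and 4.68, 5.08, 5.15 and 4.86 in controls. Its group means of 4.89 ± 0.23 in DHT50 males and 4.94 ± 0.21 in control males (SD, n = 4 each) were close, and the 95% interval of the change, -0.71 to 0.60, lay within a 2-fold difference.

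The cap-binding complex eIF4F recruits messages through their cap, and its probes with that of its helper eIF4H were 0 higher and 6 lower in DHT50 males (median -0.40, range -0.73 to -0.07). eIF4A-I, the RNA helicase of the complex, had 4.73, 3.76, 3.97 and 4.25 in DHT50 males, against 4.89, 4.57, 4.56 and 4.78 in controls. DHT50 1 lay among the controls and the other 3 lay below them. Its group means were 4.18 ± 0.42 in DHT50 males and 4.70 ± 0.16 in controls (SD, n = 4 each), a change of -0.52 ± 0.32 (adjusted p = 0.685). eIF4H had -0.71, -2.36, -2.40 and -2.27 in DHT50 males and -0.70, -1.72, -1.43 and -0.97 in controls. In both groups male 1 was highest, and the change was -0.73 ± 0.45. The cap-binding protein itself, eIF4E, had -0.72 ± 0.45 by the probe named with positions 244 to 299 and -0.28 ± 0.32 by the probe named with positions 507 to 557. The scaffold proteins eIF4G1 and eIF4G3 differed by -0.07 ± 0.37 and -0.24 ± 0.37.

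DDX48, the eIF4A isoform 3 that belongs to the exon junction complex, went the other way and had the largest difference in favour of DHT50 among the 85 probes. It had -2.75, 1.14, -0.77 and -0.70 in DHT50 males, against -2.61, -1.12, -1.25 and -1.96 in controls. DHT50 2 to 4 lay above every control and DHT50 1 below every control. The means were -0.77 ± 1.59 in DHT50 males and -1.74 ± 0.69 in control males (SD, n = 4 each), and the change of 0.97 ± 0.73 had an adjusted p of 0.685. With array brightness as a covariate its sign turned, to -0.19. eIF6, which keeps the large ribosomal subunit apart from the small one, had 0.31, -1.33, -1.45 and -0.92 in DHT50 males and -0.18, -0.47, 0.08 and -0.23 in controls. Its change was -0.65 ± 0.42, with DHT50 1 again above the controls and the rest below. For eIF5A, the factor that carries the modified residue hypusine and helps ribosomes past difficult peptide bonds, the changes of the probes were -0.31 ± 0.52 and -0.03 ± 0.57. With brightness as a covariate they were -0.995 and -0.87, both at an unadjusted p under 0.05 and neither past the adjustment. Among eIF5B and IF-2 probes, whose proteins join the ribosomal subunits, 4 were higher and 1 was lower, with a median of 0.09.

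**Figure D2:**
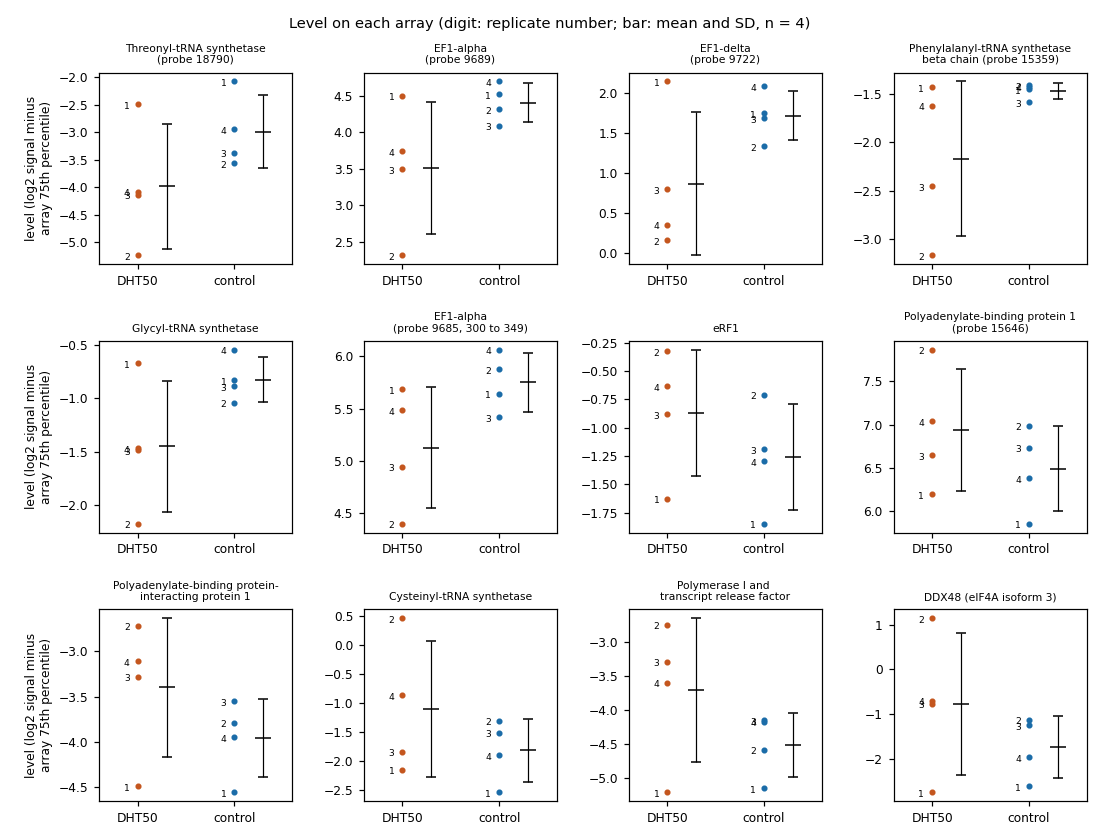
Levels on each array (log2 signal minus the 75th percentile of the array, vertical axis) of 12 named probes, those with the smallest p in each direction, in DHT50 males (left) and control males (right). Each point is a male labelled with its replicate number and the bar gives the mean and SD (n = 4); in the first 6 panels DHT50 1 is the highest DHT50 male and lies within or above the controls, and in the last 6 it is the lowest DHT50 male.

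Elongation factors had 3 of 16 tested probes higher and 13 lower in DHT50 males, with 0 past the test, a median of -0.30 and a range of -0.89 to 0.32. EF1-alpha delivers aminoacyl-tRNA to the ribosome and is among the most abundant cellular proteins. Its probe 9689 had 4.50, 2.32, 3.50 and 3.74 in DHT50 males, against 4.52, 4.31, 4.09 and 4.70 in controls. DHT50 1 was within the control range, and the other DHT50 males were below it by widely different amounts. The means were 3.51 ± 0.91 in DHT50 males and 4.41 ± 0.26 in controls (SD, n = 4 each), a change of -0.89 ± 0.46 (adjusted p = 0.685). The change shrank to -0.49 without DHT50 2 and to -0.32 with brightness as a covariate.

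Other EF1-alpha probes had changes of either sign. The probe 9685 named with positions 300 to 349 had 5.68, 4.40, 4.94 and 5.49 in DHT50 males and 5.64, 5.87, 5.42 and 6.06 in controls, a change of -0.62 ± 0.37. The probe of the same number named with positions 650 to 707 had 7.16, 8.05, 7.51 and 8.13 in DHT50 males and 7.09, 7.92, 7.58 and 7.86 in controls, a change of 0.10 ± 0.35 (adjusted p = 0.920). The sign of this small value was not stable, as it was -0.33 after quantile normalization, -0.33 in the authors' deposited log2 table and -0.22 with brightness as a covariate, and it turned without control 1 (-0.075), without DHT50 2 and without DHT50 4. DHT50 2 was thus the lowest male by the first of these probes and among the highest by the other, although the design gives both the same number and product name. The remaining probes of this factor had changes of -0.32 ± 0.31 (9690), -0.08 ± 0.40 (9688) and 0.31 ± 0.63 (9691), the last well above background on only 1 DHT50 and 3 control arrays. A probe for the 50 kDa female-specific form had -0.40 ± 0.39.

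EF1-beta, EF1-delta and EF1-gamma form the exchange complex that reloads EF1-alpha with GTP, and 1 of their 6 probes was higher and 5 were lower in DHT50 males (median -0.47). EF1-delta probe 9722 had 2.14, 0.16, 0.80 and 0.36 in DHT50 males, against 1.75, 1.34, 1.68 and 2.09 in controls. DHT50 1 had the highest level of all 8 males, and the rest of its group lay under every control. The means were 0.87 ± 0.89 in DHT50 males and 1.71 ± 0.31 in controls (SD, n = 4 each), a change of -0.85 ± 0.46. EF1-beta had 2.10, 0.30, 1.36 and 0.53 in DHT50 males and 2.22, 1.32, 1.94 and 1.82 in controls (-0.75 ± 0.45). EF1-gamma had 4.30, 2.09, 3.21 and 2.90 in DHT50 males and 4.01, 3.52, 3.94 and 3.65 in controls (-0.65 ± 0.46). By each of these 3 probes DHT50 1 was the highest and DHT50 2 the lowest of the DHT50 males. The 4 EF1-delta probes did not all share this, as DHT50 2 was the highest of all 8 males by 1 of them. EF2, which moves the ribosome by 1 codon, had changes of -0.45 ± 0.33 (9741), -0.28 ± 0.29 (9765) and -0.02 ± 0.35 (9766).

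For termination, eRF1 recognises all stop codons. It had -1.63, -0.32, -0.88 and -0.63 in DHT50 males and -1.85, -0.71, -1.19 and -1.29 in control males. Male 1 was the lowest of its group in both, and the groups overlapped. The means were -0.87 ± 0.56 in DHT50 males and -1.26 ± 0.47 in controls (SD, n = 4 each), and the change was 0.39 ± 0.39 (adjusted p = 0.718), or -0.052 with brightness as a covariate. Of the 7 tested probes of poly(A)-binding proteins, 2 were higher and 5 lower in DHT50 males, with a median of -0.28. The bright probe 15646 of poly(A)-binding protein 1 had 6.19, 7.87, 6.65 and 7.04 in DHT50 males, against 5.85, 6.99, 6.73 and 6.38 in controls. Its neighbour 15618 had 6.65, 7.88, 7.01 and 7.43 in DHT50 males and 6.32, 7.18, 7.04 and 6.98 in controls. By both probes DHT50 2 was highest and control 1 lowest, with changes of 0.45 ± 0.43 (adjusted p = 0.707) and 0.36 ± 0.37 (adjusted p = 0.721). With brightness as a covariate these became -0.085 and -0.047, and without control 1 and DHT50 2 they were -0.075 and -0.038. Probes 15648 and 15649 of the same protein had -0.34 ± 0.39 and -0.46 ± 0.42.

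Cytosolic tRNA synthetases had 6 of 16 tested probes higher and 10 lower in DHT50 males, with 0 past the test, a median of -0.37 and a range of -0.996 to 0.71. Threonyl-tRNA synthetase probe 18790 had -2.49, -5.24, -4.14 and -4.08 in DHT50 males, against -2.07, -3.57, -3.38 and -2.95 in controls. Male 1 was again the highest of its group on either side, and DHT50 2, where the probe was not well above background, was the lowest of all. The means were -3.99 ± 1.13 in DHT50 males and -2.99 ± 0.66 in controls (SD, n = 4 each). The change of -0.996 ± 0.58 (adjusted p = 0.685) was the lowest among the 85 probes, and it was -0.39 after normexp background correction and -0.11 with brightness as a covariate. A second probe of this enzyme (18793) had 0.27 ± 0.66, and it too was not well above background on every array.

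Glycyl-tRNA synthetase had -0.67, -2.18, -1.48 and -1.46 in DHT50 males and -0.83, -1.04, -0.88 and -0.54 in control males. The change was -0.63 ± 0.37, with means of -1.45 ± 0.62 in DHT50 males and -0.82 ± 0.21 in controls (SD, n = 4 each). Aspartyl-tRNA synthetase had 1.62, -0.01, 0.95 and 1.37 in DHT50 males, against 1.54, 1.77, 1.63 and 1.54 in controls. The 4 controls lay close together, DHT50 1 lay among them, and DHT50 2 to 4 lay below, a change of -0.64 ± 0.39. Histidyl-tRNA synthetase probe 12074 had 2.87, 1.30, 1.93 and 2.38 in DHT50 males and 2.57, 2.75, 2.46 and 2.79 in controls (-0.52 ± 0.38). Lysyl-tRNA synthetase had 0.23, -0.81, -0.57 and -0.96 in DHT50 males and -0.14, 0.10, -0.28 and 0.23 in controls (-0.51 ± 0.35). In each of these enzymes DHT50 1 was the highest DHT50 male. DHT50 2 was the lowest of all 8 males for the glycyl, aspartyl and histidyl enzymes, and DHT50 4 was the lowest for the lysyl enzyme.

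Phenylalanyl-tRNA synthetase is built from alpha and beta chains. Beta chain probe 15359 had -1.44, -3.17, -2.46 and -1.63 in DHT50 males, against -1.46, -1.41, -1.59 and -1.43 in controls. The means were -2.17 ± 0.80 in DHT50 males and -1.47 ± 0.08 in controls (SD, n = 4 each), a change of -0.70 ± 0.41. Controls differed by little, and DHT50 2 and DHT50 3 accounted for most of the distance. The alpha chain had -0.39 ± 0.33. Cysteinyl-tRNA synthetase had -2.16, 0.46, -1.85 and -0.87 in DHT50 males and -2.55, -1.31, -1.51 and -1.90 in controls. Only DHT50 2 and DHT50 4 exceeded the controls, and the change was 0.71 ± 0.58 (adjusted p = 0.685), or -0.048 with brightness as a covariate and -0.051 without control 1 and DHT50 2. Leucyl-tRNA synthetase had -0.33 ± 0.35 for the cytosolic enzyme. The mitochondrial enzyme, which charges tRNA inside mitochondria, had -5.11, -3.77, -4.38 and -4.20 in DHT50 males and -5.26, -4.80, -4.36 and -4.07 in controls, a change of 0.25 ± 0.40 (adjusted p = 0.811). It was -0.20 with brightness as a covariate and -0.16 without control 1 and DHT50 2. The probe of the mitochondrial enzyme was not well above background on every array.

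Among the 8 tested probes whose names placed them in none of these classes, 4 were higher and 4 lower in DHT50 males (median -0.04). Polymerase I and transcript release factor, a caveola protein also called cavin, had -5.21, -2.74, -3.28 and -3.59 in DHT50 males, against -5.15, -4.58, -4.14 and -4.17 in controls. DHT50 2 to 4 lay above every control and DHT50 1 below every control, and the change was 0.80 ± 0.53, or 0.037 with brightness as a covariate and 0.16 after normexp background correction. Polyadenylate-binding protein-interacting protein 1, a coactivator of initiation, had -4.49, -2.72, -3.28 and -3.11 in DHT50 males and -4.56, -3.79, -3.55 and -3.95 in controls. It had the same 3 DHT50 males above the controls, with a change of 0.56 ± 0.44, or -0.0031 with brightness as a covariate. Elongation factor 2 kinase, which slows elongation by phosphorylating EF2, had 0.31, 2.05, 1.39 and 0.43 in DHT50 males and 0.62, 0.90, 0.998 and 0.41 in controls (0.31 ± 0.43, adjusted p = 0.789). Its change was -0.17 with brightness as a covariate, -0.063 without control 1 and DHT50 2, and -0.34 in slide row 2 alone. eIF2-alpha kinase 4, the amino acid sensor also known as GCN2, had changes of -0.50 ± 0.44 and -0.27 ± 0.45 by its probes, neither of them well above background on every array. The eIF4E-binding protein, a brake on cap-dependent initiation, had 0.12 ± 0.33 and -0.30 ± 0.34. The eIF3 subunit 6 interacting protein had 3.37, 3.06, 2.78 and 3.29 in DHT50 males, against 3.25, 3.43, 3.26 and 3.37 in controls (-0.20 ± 0.29, adjusted p = 0.790).

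An arrangement of males recurred through these classes. For 30 of the 85 probes (35.3%) at least 3 DHT50 males lay below every control, against 13.5% of all tested probes. In 27 of the 30 the exception was DHT50 1. Over all tested probes it was the exception in 575 of 811, and 57 of the 811 had no exception. At least 3 DHT50 males lay above every control for 3 probes (3.53%), against 17.9% of all tested probes, and DHT50 1 was the exception in all 3. Over all tested probes it was the exception in 816 of 1072, and 76 of the 1072 had no exception. The exception was thus mostly DHT50 1 over the whole table too. DHT50 3 was never the highest of the 8 males (0 of 85), against 9.9% of all tested probes. It was the lowest for 20 probes (23.5%), against 8.4% of all tested probes. Control 2 and control 4 were never the lowest, against 6.98% and 2.19% of all tested probes. Control 4 was the highest for 19 probes (22.4%), against 12.8% of all tested probes. DHT50 2 was the highest male for 24 probes (28.2%) and the lowest for 28 (32.9%), against 29.1% and 24.8% of all tested probes. Its position thus changed from probe to probe, among the 85 probes and over the whole table.

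**Figure D3:**
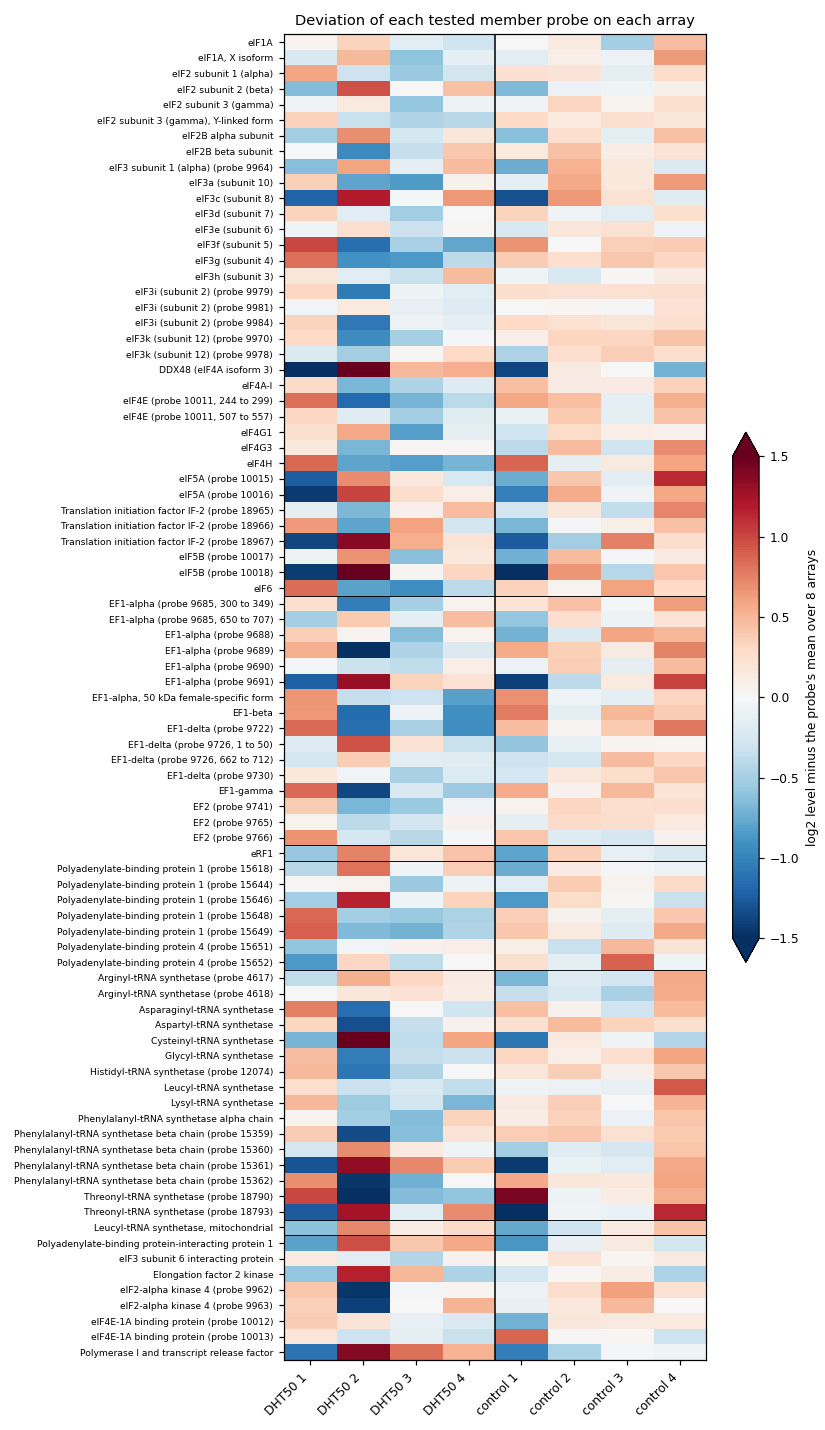
Deviation of each of the 85 tested probes (rows, grouped by role) on each array (columns, DHT50 males left of the line and control males right) from the mean of the probe over the 8 arrays, on the log2 scale. Red is above and blue below the mean; DHT50 1 and control 1 carry like colours in many rows, and DHT50 2 carries the strongest colours of either kind.

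Leaving out DHT50 1 made the difference between groups more regular. Without it, 26 of the 85 probes (30.6%) had an unadjusted p under 0.05, 23 of them lower (27.1%) and 3 higher (3.53%) in DHT50 males. Over all tested probes the share without this male was 23.2%, with 9.20% lower and 14.0% higher. None of the 85 passed the adjustment (lowest adjusted p = 0.174). The 26 probes came from initiation factors (10 of 36), elongation factors (5 of 16), poly(A)-binding proteins (2 of 7), cytosolic synthetases (7 of 16) and the names outside these classes (2 of 8). The change without DHT50 1 was -1.06 for eIF3g, -1.15 for eIF3f, -1.03 for eIF6, -1.27 for EF1-delta probe 9722 and -1.50 for Threonyl-tRNA synthetase probe 18790. The 3 probes on the higher side were DDX48 (1.63), Polymerase I and transcript release factor (1.31) and Polyadenylate-binding protein-interacting protein 1 (0.93). DHT50 1 is left out here because of its values, so that these figures describe the remaining 7 males and do not replace the comparison of all 8. The DHT50 arrays that remain had brightness of 7.97, 9.13 and 9.50, each dimmer than every control (9.99 to 11.21). In this fit treatment and array brightness therefore cannot be told apart.

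The probes taken as a set can be read against the arrays. The median deviation of the 85 probes from their means was 0.15, -0.18, -0.28 and -0.00 in DHT50 males 1 to 4, against -0.09, 0.15, 0.06 and 0.31 in control males 1 to 4. The same median over all tested probes was -0.25, 0.13, 0.11 and 0.13 in DHT50 males and -0.34, -0.03, 0.05 and 0.15 in controls. The translation probes therefore lay below the general level in DHT50 2 to 4. They lay above it in DHT50 1, control 1, control 2 and control 4, and close to it in control 3. DHT50 2 to 4 were the dimmest arrays, at 7.97, 9.13 and 9.50. DHT50 1 and control 1 were the brightest, while controls 2 to 4 had intermediate brightness. With brightness as a covariate the median of the 85 probes was -0.19 and that of all tested probes -0.13, a gap of -0.06 in place of the -0.32 without it. Without control 1 and DHT50 2, the brightest and the dimmest array, the medians were -0.27 and -0.10, a gap of -0.17. Within slide row 1 the median was -0.05 for the 85 probes and 0.33 for all, and within slide row 2 -0.28 and 0.07, so that the gap was -0.38 and -0.35. Each row held only 1 male of a group.

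**Figure D4:**
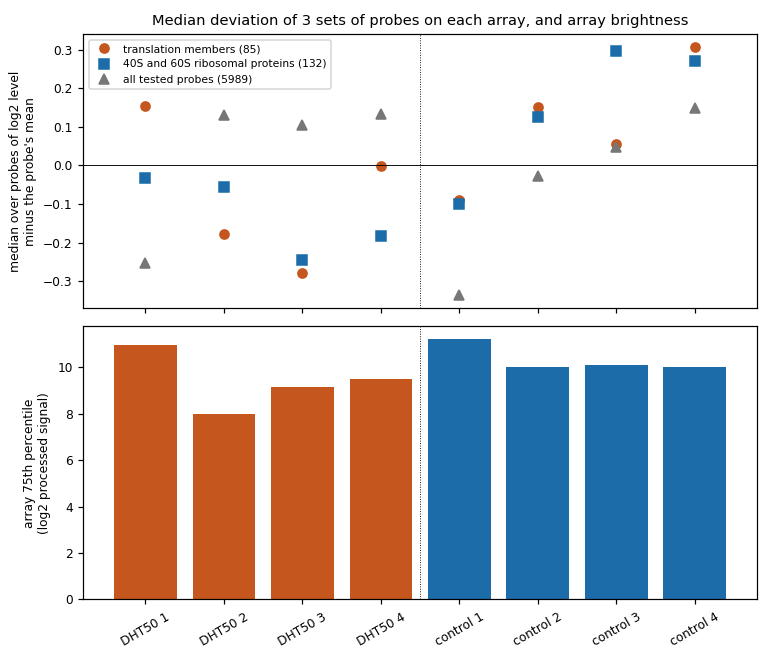
Upper panel, median deviation (log2) from the probe means on each array for the 85 translation probes, 132 ribosomal protein probes and all 5989 tested probes; lower panel, the brightness of each array (log2 75th percentile of the processed signal). Translation and ribosomal probes lie below the median of all probes on DHT50 2 to 4 and above it on DHT50 1 and all 4 controls, by only 0.06 against 0.05 for the translation probes on control 3.

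Product names with several probes showed how far the measurement of 1 name can spread. Duplicate spots of the same probe differed little, with a median difference of 0.074 over the 85 probes. Different probes of a name differed more. The changes of 6 EF1-alpha probes spanned -0.89 to 0.31, those of 4 EF1-delta probes -0.85 to 0.32, and those of 5 poly(A)-binding protein 1 probes -0.46 to 0.45. The 4 beta chain probes of Phenylalanyl-tRNA synthetase fell into pairs, at -0.74 and -0.70 and at 0.26 and 0.56. The 3 eIF3i probes (-0.49 to -0.11) and the 3 EF2 probes (-0.45 to -0.02) kept 1 sign. A shared name can cover distinct genes of a family, and the design does not tell them apart.

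**Figure D5:**
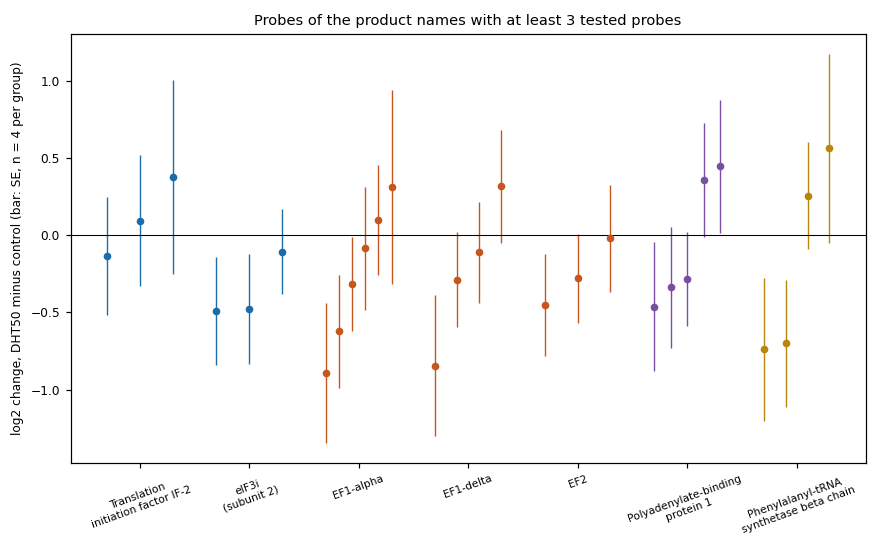
Log2 change (DHT50 minus control, vertical axis) of each tested probe for the 7 product names with at least 3 tested probes, with bars for the standard error (n = 4 males per group). Probes of EF1-alpha, EF1-delta, poly(A)-binding protein 1, IF-2 and the Phenylalanyl-tRNA synthetase beta chain fall on both sides of 0, and those of eIF3i and EF2 fall below it.

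Ribosomal proteins, the fixed parts of the machine these factors serve, also leaned to lower levels. Of 132 tested probes for 40S and 60S proteins, 47 were higher and 85 lower in DHT50 males, with a median change of -0.27. The lower ones made up 64.4%, against 46.4% of all tested probes. The changes ranged more widely than those of the translation probes, from -1.26 to 1.40. Every DHT50 male lay below every control for 5 of the 132, against 0.952% of all tested probes. None (0) had every DHT50 male above every control, against 1.27%. At least 3 DHT50 males lay below every control for 40.9% and above every control for 11.4%, against 35.3% and 3.53% of the translation probes. Over all tested probes these shares were 13.5% and 17.9%. At an unadjusted p under 0.05, 1 of the 132 was higher and 1 lower, against 3.29% higher and 1.42% lower of all tested probes. Their median deviations were -0.03, -0.06, -0.24 and -0.18 in DHT50 males and -0.10, 0.13, 0.30 and 0.27 in controls. A further list of 29 tested probes for other translation genes had 10 higher and 19 lower, with a median of -0.24. It included mitochondrial elongation factor Ts, the exchange partner of the mitochondrial EF-Tu, at -2.08, -3.68, -3.09 and -2.18 in DHT50 males, against -2.05, -1.98, -1.99 and -1.96 in controls. Every DHT50 male lay below every control for it, although the controls and DHT50 1 lay within a narrow span. Such a separation held for 1 of the 29 probes, against 0.952% of all tested probes. The change of elongation factor Ts was -0.76 ± 0.40 (unadjusted p = 0.0892, limma). The mTOR kinase FKBP12-rapamycin complex-associated protein, which controls initiation through the eIF4E-binding proteins, had changes of -0.46 and -0.57 by its probes.

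Markers of other cell types were summed on each array beside these values. Germ-cell markers (7 probes) summed to 0.552 to 1.27 in DHT50 males and 0.774 to 1.51 in controls, and their 5 tested probes had a median change of -0.31. Testis somatic markers (3 probes) summed to 0.521 to 1.19 in DHT50 males and 0.460 to 0.593 in controls. Of these, 2 were higher and 1 lower (median 0.79, range -0.63 to 0.89), and only 1 was well above background on all 8 arrays. Red blood cell markers (27 probes) summed to 86.8 to 153.9 in DHT50 males and 108.2 to 146.5 in controls, and 15 of the tested probes were higher and 6 lower in DHT50 males (median 0.42). Leukocyte markers (22 probes) summed to 4.83 to 29.3 in DHT50 males and 4.79 to 20.9 in controls, with 11 higher and 6 lower (median 0.58). Muscle markers (67 probes) summed to 36.8 to 70.9 in DHT50 males and 41.8 to 62.4 in controls, with 39 higher and 12 lower (median 0.26). The medians of the somatic, red blood cell, leukocyte and muscle lists had the opposite sign to that of the translation probes. The liver and plasma median, given below, and the germ-cell median, from 2 probes higher and 3 lower, had the same sign as that of the translation probes. The ranges of the sums overlapped for every list. Of the 33 tested liver and plasma probes 7 were higher and 26 lower in DHT50 males (median -1.56), with the highest sum in control 1. The part of cell composition, of array brightness and of slide row in the values of the translation probes was not tested beyond the comparisons given.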

How the data were processed

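Testis RNA of 4 DHT50 and 4 control males was measured on 8 arrays of 1 slide. The authors deposited an intensity per spot, the processed signal that Agilent's Feature Extraction software (10.7.1.1) had corrected for background, per the file headers. Their deposited log2 table had a median of 7.47 and equal sorted values on each array; it served as an alternative, and its tool is not stated in the sources. Each array carried 14850 spots, including 536 control spots. Log2 signal minus the 75th percentile was averaged over 2 spots per probe, leaving out 28 outlier readings of 114512. No spot was saturated (0). Probes above background on at least 4 arrays (5989) were compared by moderated two-sided tests in limma 3.58.1 (R 4.3.3), and p was adjusted over all of them after Benjamini and Hochberg. On simulated data, with 200 of 5989 probes changed, the test recovered 3.96% of 2-fold, 47.7% of 4-fold and 75.9% of 8-fold changes. The simulated noise was independent between probes, whereas probes of 1 measured array move together, so these shares need not hold for the measured arrays. Named probes were the 6 with the smallest p in each direction and the 2 brightest of each role; others were added as examples after their values were seen. Members, lists and alternatives were chosen with earlier results of these data known. The number of arrays limits the precision.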

Additional observations from a re-analysis of the deposited data

How the results depend on the processing

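With 4 males per group, whose replicates measure the spread between these animals, the median SE of 0.38 and the 9.44-fold range of brightness limited what could be told. No probe of the whole table was called, except that 106 were in slide row 1 alone, where control 1 is the only control. With brightness as a covariate, 2 translation probes had an unadjusted p under 0.05, both for eIF5A, at -0.995 and -0.87. In that setting 199 of all 5989 tested probes did so. In the comparison of all males without it, 0 of the 85 translation probes and 282 of all tested probes did. The cause was not tested. Leaving out each male in turn gave 0 to 26 such translation probes, the 26 without DHT50 1. In that fit 1389 of all 5989 tested probes (23.2%) did so, against 137 to 355 with another male left out. The median of the translation probes was -0.048 in slide row 1 alone, -0.13 after normexp background correction (0.02 for all probes), -0.15 with the slide row as a block (0.21 for all) and between -0.34 and -0.17 with each male left out. It kept its sign under every alternative run. The labels state no pairing of the males by replicate number. Same-numbered males had correlations of their deviations of 0.20, 0.16, 0.38 and -0.11, and 3 of 4 DHT50 males correlated best with their own number. These values do not decide whether the numbers pair the males. With the number as a replicate block 1 translation probe, Threonyl-tRNA synthetase 18790, had an unadjusted p under 0.05 (0.0189, limma), and 0 passed the adjustment. In that fit 597 of all 5989 tested probes had an unadjusted p under 0.05.

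Of 374 changes of the 22 named probes under the alternatives, 347 kept their direction, 27 did not, and 0 passed an adjusted p of 0.05. With brightness as a covariate the sign turned for Cysteinyl-tRNA synthetase (-0.048), DDX48 (-0.19), EF1-alpha 9685 at 650 to 707 (-0.22), Elongation factor 2 kinase (-0.17), mitochondrial Leucyl-tRNA synthetase (-0.20), poly(A)-binding protein 1 probes 15618 (-0.047) and 15646 (-0.085), Polyadenylate-binding protein-interacting protein 1 (-0.0031) and eRF1 (-0.052). Without control 1 and DHT50 2 it turned for Cysteinyl-tRNA synthetase (-0.051), EF1-alpha 9685 at 650 to 707 (-0.19), Elongation factor 2 kinase (-0.063), mitochondrial Leucyl-tRNA synthetase (-0.16) and poly(A)-binding protein 1 probes 15618 (-0.038) and 15646 (-0.075). EF1-alpha 9685 at 650 to 707 was -0.33 after quantile normalization and -0.33 in the deposited table, and -0.075 to 0.29 with each male left out. Elongation factor 2 kinase was -0.34 in slide row 2 alone and -0.025 to 0.56 with each male left out. eIF3e was 0.013 after normexp, 0.045 with the slide row as a block, 0.19 in slide row 1 alone and -0.15 to 0.041 with each male left out. The cause of these turns was not tested. Normexp used median spot signals, and the planned version on mean signals was not run.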

Other observations

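EF1-alpha is widely used as a reference gene for normalizing other transcripts, and its probes varied between these males. Probe 9690 ranged from 6.04 to 6.90 over the 8 males and probe 9689 from 2.32 to 4.70. The steadiest of the 85 translation probes was eIF3i probe 9981, with levels of -0.45, -0.27, -0.54 and -0.60 in DHT50 males and -0.42, -0.39, -0.45 and -0.20 in controls, a range of 0.40. The next was eIF3e with a range of 0.57. The median range was 1.48 over the 6 EF1-alpha probes, 1.43 over the translation probes and 1.96 over all tested probes. DDX48 had the widest range of the 85, at 3.89.

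In the list of other translation genes, 2 of the 29 tested probes had an unadjusted p under 0.05, both lower in DHT50 males. The share over all tested probes was 4.71% (1.42% lower). Both probes carried the name Ribonuclease UK114, described as an inhibitor of translation. Their changes were -1.58 ± 0.66 and -1.63 ± 0.68, and a further probe of this name had -1.46 ± 0.66, each with an adjusted p of 0.685 by limma. Control 1, the male with the high liver and plasma signal, had the highest level of all 8 males by these probes.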
